A study of Mus musculus with 12 samples.

Results

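The neurotrophic and growth factors described here are 10 genes, namely Gdnf, Bdnf, Fgf9, Fgf13, Pdgfc, Igf1, Vegfa, Vegfb, Hgf and Tgfb1. Their members were all probes whose transcript accession matched 1 of these genes in a RefSeq table, which gave 14 of the 39429 probes on the arrays, 4 for Igf1, 2 for Vegfa and 1 for each of the other 8 genes. The arrays held 20659 genes with a symbol. The cells were primary microglia, the resident macrophages of the brain, shaken off mixed glial cultures of newborn C57BL/6 mice and carrying no transgene or mutation that the labels name. They were given culture supernatant of Th1 cells (n = 4), supernatant of Th17 cells (n = 4) or T cell medium alone (n = 4, called untreated), and their RNA was taken after 16 h and run on 1-colour Agilent arrays. The 4 independent experiments carry the numbers 12, 13, 14 and 16, and an array is called by its treatment plus that number, as in Th1 14. The supernatants hold whatever the T cells released, so a treatment here is a mixture and not a single cytokine, and how the Th17 supernatant was made is not given in the sources used here.

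Growth factors are secreted proteins that bind receptors, most of them receptor tyrosine kinases, on the producing cell or its neighbours. Microglia in culture and in the developing brain are a known source of insulin-like growth factor, and they depend on transforming growth factor beta to keep their identity. Neurotrophic factors such as GDNF and BDNF support the survival of neurons and the growth of their processes.

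Between 54.49% and 64.99% of probes were well above background on an array. Probes were kept for testing where 4 or more of the 12 arrays measured them well above background. Of 15 microglial markers 14 were kept, and those 14 were well above background on each array, although Cx3cr1, Trem2, Tmem119 and Fcrls fell with Th1 supernatant and Aif1, P2ry12 and Ptprc rose. Of the astrocyte markers 7 of 12 were kept, and their mean log2 signal ran from 7.22 to 8.15 on Th1, from 7.29 to 8.31 on Th17 and from 7.17 to 8.69 on untreated arrays, highest in each group in experiment 14. The 7 kept perivascular macrophage markers averaged 10.29 to 10.84 on Th1, 11.25 to 11.8 on Th17 and 10.78 to 11.2 on untreated arrays, and with Th1 supernatant Siglec1 and Clec10a rose while F13a1, Ms4a7, Pf4 and Cbr2 fell. Of 9 kept oligodendrocyte markers Mag and Cnp rose and Mbp and Cspg4 fell, of 5 kept neuron markers Syn1 rose and Rbfox3 fell, of the astrocyte markers Fabp7 fell, and none of 5 kept fibroblast and mural markers was called. The 5 kept endothelial markers averaged 10.32 to 11 on Th1, 7.94 to 8.60 on Th17 and 7.79 to 7.95 on untreated arrays, with Ly6c1 and Vwf called higher with Th1 supernatant. The 6 kept T cell markers averaged 8.10 to 8.48 on Th1, 8.46 to 8.83 on Th17 and 8.83 to 8.94 on untreated arrays, with Lck higher and Cd5 and Cd28 lower in Th1-treated cells. Cd3e (mean log2 signal 10.03 on Th1, 10.13 on Th17 and 10.33 on untreated arrays) was well above background on all 12 arrays and not called. The same held for Cd4 (12.37, 12.44 and 12.52). Of the other T cell markers Cd3d, Cd3g and Cd2 were too dim to be kept and Trac had no named probe. The part of these markers in the results was not tested. Fewer cells of a type and less RNA per cell cannot be told apart in such bulk samples.

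Some growth factors passed the threshold for a call with Th1 supernatant and others did not, and none was called with Th17 supernatant. A probe was called where limma's adjusted p (Benjamini-Hochberg) was under 0.01 and the change exceeded 2-fold. Of the 14 probes, 2 rose and 6 fell in Th1-treated against untreated microglia. Over all 24286 probes tested, 15.5% were called in this comparison, 7.56% higher and 7.98% lower. By gene, Fgf9 and Pdgfc rose and Gdnf, Fgf13 and Igf1 fell, while Bdnf, Vegfa, Vegfb, Hgf and Tgfb1 were not called, against 7.49% of 19801 genes called higher and 7.89% called lower.

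**Figure D1:**
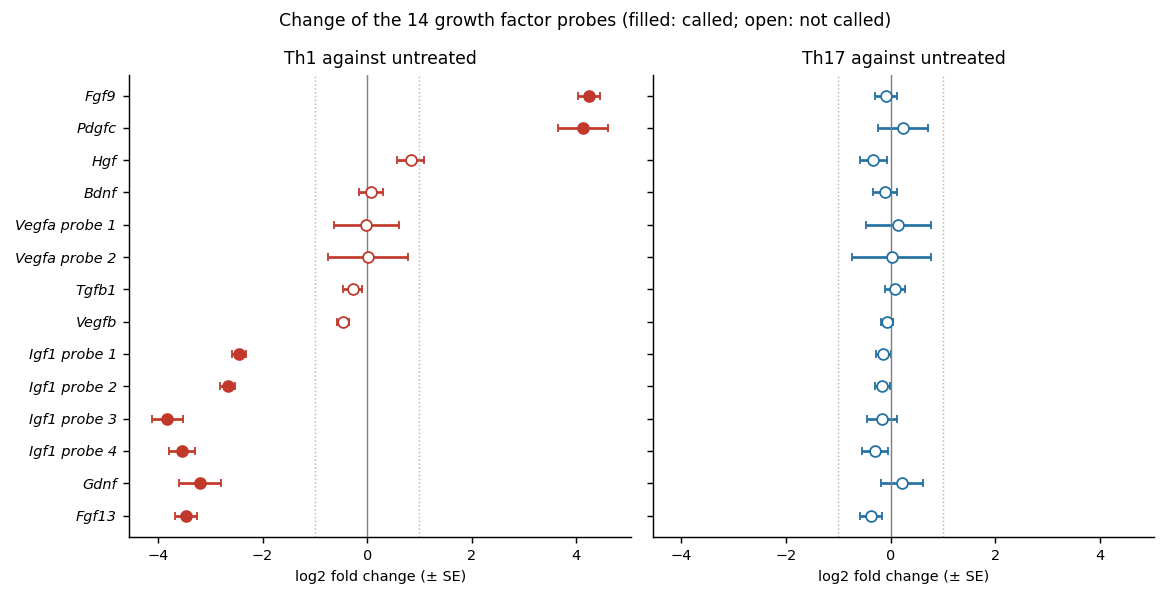
Log2 fold change of each of the 14 growth factor probes, with its standard error, for Th1 against untreated (left) and Th17 against untreated (right), 4 arrays per group, with dotted lines at a 2-fold change. Filled points are called, and all 14 points of the Th17 comparison are open and lie between -0.37 and 0.24.

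The stretch of genome before a listed start of transcription is shown for 4 of the genes that changed, 2 that rose and 2 that fell, so that their promoters can be read beside their values. Each line holds the 250 bases before the first listed start in RefSeq's GRCm38.p6 assembly, 5′ to 3′ on the gene's strand. The windows of Pdgfc and Gdnf end just before the gene. Those of Fgf9 and Igf1 lie inside the span of the gene, which begins at 58070671 for Fgf9 and at 87858265 for Igf1. All 10 genes had a listed start, 22 starts in all, with 1 each for Fgf9, Pdgfc and Igf1, 2 for Gdnf and 4 for Fgf13. Capitals mark matches, on either strand, to the interferon-gamma activated site TTCNNNGAA, the interferon response element (GAAA and a second GAAA 2 bases after it), the core ACGTG of the hypoxia response element or the TATA box TATAAA, of which none overlap in these lines.
Fgf9, chr14:58072436-58072685, plus strand: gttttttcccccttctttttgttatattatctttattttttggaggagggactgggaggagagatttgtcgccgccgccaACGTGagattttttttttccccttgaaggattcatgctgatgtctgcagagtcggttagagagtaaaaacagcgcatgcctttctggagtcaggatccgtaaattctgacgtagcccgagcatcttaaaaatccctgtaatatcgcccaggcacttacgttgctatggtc
Pdgfc, chr3:81036166-81036415, plus strand: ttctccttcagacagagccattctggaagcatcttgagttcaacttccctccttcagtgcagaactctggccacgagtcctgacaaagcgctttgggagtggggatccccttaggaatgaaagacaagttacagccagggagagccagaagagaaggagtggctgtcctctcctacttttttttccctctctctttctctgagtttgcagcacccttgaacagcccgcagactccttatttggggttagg
Gdnf, chr15:7809798-7810047, plus strand: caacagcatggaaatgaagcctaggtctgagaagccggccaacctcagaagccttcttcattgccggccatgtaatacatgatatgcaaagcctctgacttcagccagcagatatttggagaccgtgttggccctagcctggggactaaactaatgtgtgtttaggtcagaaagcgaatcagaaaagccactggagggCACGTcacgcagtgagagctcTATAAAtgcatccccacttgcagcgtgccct
Igf1, chr10:87860861-87861110, plus strand: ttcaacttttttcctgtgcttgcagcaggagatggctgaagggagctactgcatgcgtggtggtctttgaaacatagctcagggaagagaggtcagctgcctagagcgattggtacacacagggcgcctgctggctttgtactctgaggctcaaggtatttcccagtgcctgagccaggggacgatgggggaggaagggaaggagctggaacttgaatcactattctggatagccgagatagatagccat

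Only Fgf9 and Gdnf held a match among the 4 windows. Fgf9 held the hypoxia core 170 bases before its listed start, inside the span of the gene. Gdnf held the core 52 bases and a TATA box 31 bases before its start. Among all 32851 windows of this length, 16.6% held the hypoxia core, 12.4% the TATA box, 7.02% the interferon-gamma activated site and 2.98% the interferon response element. None of the 9 windows of the 5 called genes held either interferon motif, and among the other 5 genes Bdnf held both, in different windows, and Vegfa held the response element. A match is a description of these letters only.

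Fgf9, a secreted fibroblast growth factor first known as a growth factor for glial cells, rose with Th1 supernatant to well above background. Its normalised signal was 408, 233, 321 and 395 units on the Th1 arrays of experiments 12, 13, 14 and 16. It was 15, 15, 15 and 21.4 units on the Th17 arrays and 15, 15, 17.6 and 23.3 units on the untreated arrays, where 15 units is the floor set for dim probes. Every Th1 array lay above all Th17 and untreated arrays, which were at or near the floor. The probe was well above background on all 4 Th1 arrays, on no Th17 array and on 1 untreated array, untreated 14. The log2 change against untreated was 4.25 ± 0.21 (SE, 19-fold, adjusted p = 5.45e-08), higher in 4 of 4 experiments. The size of this change depends on the floor, since most untreated arrays did not measure the probe above background, and with a floor of 50 it was 2.73.

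Pdgfc encodes a platelet-derived growth factor that is released in a latent form and activates the receptor PDGFRA once it has been cut. Its normalised signal was 9282, 8037, 8715 and 6477 units on the Th1 arrays of experiments 12, 13, 14 and 16. It was 896, 411, 852 and 277 units on the Th17 arrays and 640.5, 449.7, 876 and 175 units on the untreated arrays. All Th1 arrays lay above all others, and experiment 16 was the lowest of its group in each group. The log2 change against untreated was 4.13 ± 0.48 (17.6-fold, adjusted p = 4.04e-05), and within single experiments it ran from 3.31 to 5.21. The untreated arrays spread far more than the Th1 arrays, with log2 means of 12.98 ± 0.23 in Th1 and 8.84 ± 1.0 in untreated cells (SD, n = 4 each). Without untreated 16 the log2 change was 3.67.

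**Figure D2:**
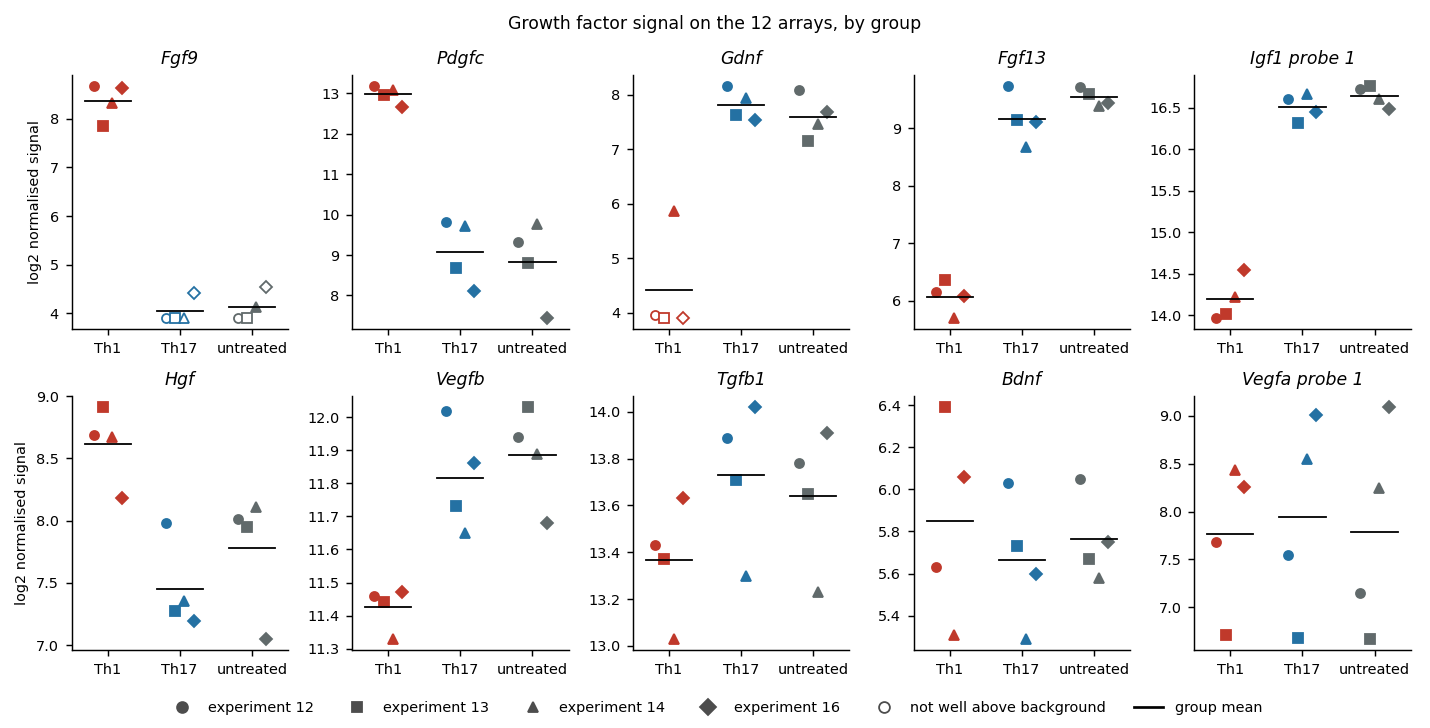
Log2 normalised signal of the 10 genes (1 probe each) on the 12 arrays, in Th1, Th17 and untreated microglia, with 1 symbol per experiment, open symbols where the probe was not well above background and a line at the group mean. The 4 Th1 points lie apart from both other groups for Fgf9, Pdgfc, Gdnf, Fgf13 and Igf1, and by less for Vegfb and Hgf. The share of all probes that lie apart in this way was not counted. Each panel has its own scale.

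Gdnf, the founding member of the glial cell line-derived neurotrophic factors, which signal through GFRA1 and RET, fell with Th1 supernatant to near the floor. Its normalised signal was 15.6, 15, 57.9 and 15 units on the Th1 arrays of experiments 12, 13, 14 and 16. It was 287, 199, 247 and 186 units on the Th17 arrays and 273, 142, 178 and 205 units on the untreated arrays. Th1 14 was the single Th1 array well above background, and it too lay below every array of the other groups. The log2 change against untreated was -3.19 ± 0.40 (9.13-fold lower, adjusted p = 6.63e-05), lower in 4 of 4 experiments by 1.62 to 4.13. The change depended on how dim spots were handled, at -1.90 when the floor was raised to 50 and -4.12 when none was set. Without experiment 14 the Gdnf change was -3.72 (adjusted p = 2.03e-05). On Th1 14 the astrocyte markers averaged a log2 signal of 8.15, against 7.22 to 7.55 on the other Th1 arrays. The oligodendrocyte markers (8.92 against 8.25 to 8.59) and the neuron markers (7.43 against 6.46 to 6.89) were also highest there. Untreated 14 had an astrocyte mean of 8.69 and 178 units of Gdnf. Untreated 12 had an astrocyte mean of 7.44 and 273 units of Gdnf. The part of these markers in the Gdnf signal was not tested.

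Fgf13 belongs to the fibroblast growth factor family by sequence but is not secreted, and its protein binds voltage-gated sodium channels inside cells. Its normalised signal was 71, 82.1, 52.4 and 68.3 units on the Th1 arrays of experiments 12, 13, 14 and 16. It was 850, 569, 410 and 550 units on the Th17 arrays and 840, 776, 668 and 695 units on the untreated arrays. The probe was well above background on all 12 arrays, and the Th1 arrays did not overlap the others. The log2 change against untreated was -3.46 ± 0.21 (11-fold lower, adjusted p = 2.29e-07), with a narrow range of -3.67 to -3.24 within experiments. Normalising the median spot signal by normexp gave -2.14.

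Igf1, insulin-like growth factor 1, a survival factor for neurons and for cells of the oligodendrocyte lineage, fell with Th1 supernatant on each of its 4 probes, which are numbered here by mean signal. On probe 1 the normalised signal was 16085, 16613, 19084 and 24011 units on the Th1 arrays of experiments 12, 13, 14 and 16. It was 100299, 81765, 103240 and 89318 units on the Th17 arrays and 108037, 110835, 100020 and 92160 units on the untreated arrays. The Th1 arrays did not overlap the other groups on any Igf1 probe, and Th1 16 was the highest of its group on probes 1, 2 and 3. The log2 change against untreated was -2.45 ± 0.14 on probe 1 (5.48-fold lower, adjusted p = 1.57e-07) and -2.67 ± 0.14 on probe 2 (6.36-fold lower, adjusted p = 8.1e-08). It was -3.82 ± 0.29 on probe 3 (14.1-fold lower, adjusted p = 3.32e-06) and -3.54 ± 0.25 on probe 4 (11.7-fold lower, adjusted p = 1.05e-06).

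The Igf1 probes thus disagreed in the size of the fall. The log2 ratio of probe 3 to probe 1 within an array was 1.36 lower on Th1 than on untreated arrays, and that of probe 4 to probe 1 was 1.09 lower. Of 6 such comparisons (3 probes, each against untreated and against Th17), 5 gave p = 0.0286 in an exact two-sided permutation test. Their adjusted p was 0.0343. The p is the smallest that these numbers of arrays allow when arrays are permuted freely between groups. The pairing by experiment was not kept in this test. All 6 comparisons share probe 1 and the same Th1 arrays, so they are not separate tests. The sixth, probe 4 against Th17, differed by -0.94 (p = 0.0571, exact permutation test). On probe 3 the spot of untreated 14 was marked as an outlier and left out, so 3 untreated arrays entered its values. No Igf1 spot was saturated.

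**Figure D3:**
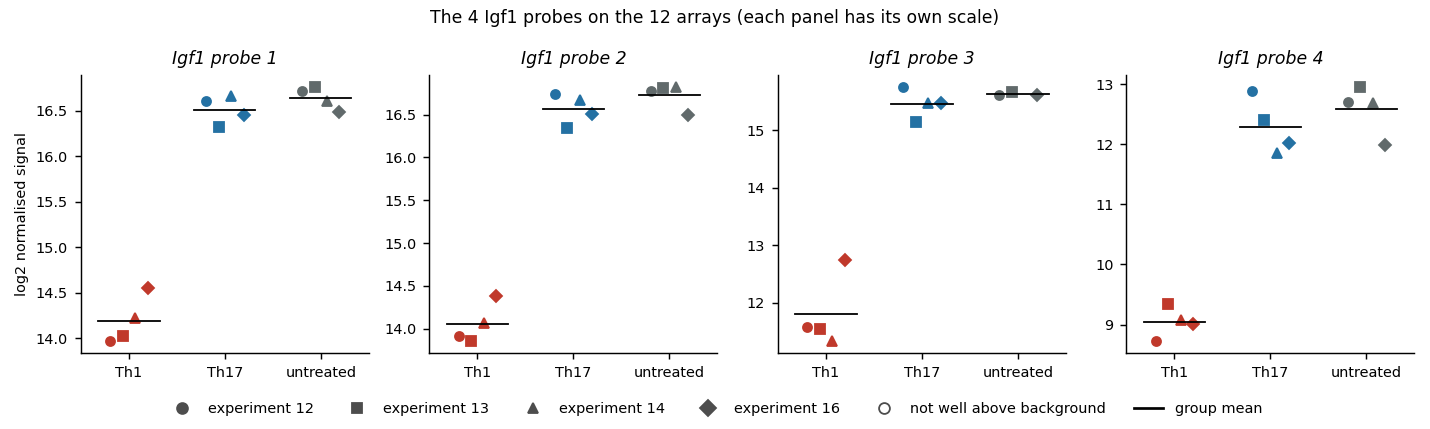
Log2 normalised signal of the 4 Igf1 probes on the 12 arrays in Th1, Th17 and untreated microglia, with 1 symbol per experiment and a line at the group mean. The Th1 points lie below the other groups on every probe, by 2.45 to 3.82 on the log2 scale against untreated, and each panel has its own scale.

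Of the 5 genes that were not called, Vegfb and Hgf still had Th1 arrays apart from the untreated ones. Over all 24286 probes, 12622 had an unadjusted limma p under 0.05 in Th1 against untreated. The share of probes with arrays apart was not counted, so this separation alone does not mark the 2 genes out. Vegfb, a ligand of the receptor VEGFR1, had 2817, 2770, 2583 and 2831 units on the Th1 arrays of experiments 12, 13, 14 and 16. It had 4151, 3391, 3219 and 3727 units on the Th17 arrays and 3938, 4195, 3797 and 3290 units on the untreated arrays. All 4 Th1 arrays were lower than every other array, yet the log2 change against untreated, -0.46 ± 0.11, was under 2-fold (adjusted p = 0.00481). Hgf, the ligand of the receptor MET, had 412, 481, 408 and 291 units on the Th1 arrays, against 258, 248, 276 and 133 units on the untreated arrays. Its Th1 arrays did not overlap the untreated ones, and untreated 16 was the lowest array of its group. The log2 change of Hgf was 0.83 ± 0.26 (adjusted p = 0.0207), higher in 4 of 4 experiments by 0.57 to 1.13. In the limma fit with experiment as a block the adjusted p was 0.00344 for Hgf and 0.00414 for Vegfb, both changes still under 2-fold.

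Tgfb1, a cytokine that keeps microglia in their resting state, varied mainly with the experiment, which accounted for 71.3% of the variance of its log2 signal, while the treatment group accounted for 27.7%. Its normalised signal was 11074, 10575, 8342 and 12710 units on the Th1 arrays of experiments 12, 13, 14 and 16, against 14087, 12891, 9615 and 15404 units on the untreated arrays. The groups overlapped, and experiment 14 was the lowest and experiment 16 the highest in both. The log2 change was -0.28 ± 0.19 (adjusted p = 0.269), while within each experiment the Th1 array was lower by 0.20 to 0.35. With experiment as a block the change was the same and its adjusted p was 0.00766, still under 2-fold. Scaling to the 75th percentile alone, without the quantile step, gave -0.06 (adjusted p = 0.804).

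Bdnf, the neurotrophin that binds the receptor TrkB, was not called in any comparison. Its normalised signal was 49.4, 84.2, 39.6 and 66.7 units on the Th1 arrays of experiments 12, 13, 14 and 16, against 66.1, 51.1, 47.7 and 53.9 units on the untreated arrays. The probe was well above background on all 12 arrays, and the groups overlapped. The log2 change was 0.08 ± 0.23 (95% interval -0.43 to 0.60, adjusted p = 0.788) and turned to -0.06 under scaling alone, and the interval leaves out a 2-fold change in either direction.

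Vegfa, the main growth factor of blood vessels and a known target of hypoxia, varied mainly with the experiment. On probe 1 the normalised signal was 206, 104, 346 and 306 units on the Th1 arrays of experiments 12, 13, 14 and 16. It was 187, 102, 374 and 516 units on the Th17 arrays and 142, 102, 305 and 545 units on the untreated arrays. In all groups experiment 13 was the lowest, at 102 to 104 units. Experiment accounted for 92.8% of the variance of the log2 signal on probe 1 and 94.3% on probe 2, against a median of 26.5% over 24206 probes with a value on all arrays, of which 0.186% had a share at least as high as probe 1. The treatment groups accounted for 0.849% on probe 1. The log2 change with Th1 supernatant was -0.02 ± 0.62 on probe 1 (95% interval -1.42 to 1.38, adjusted p = 0.98) and 0.02 ± 0.76 on probe 2 (adjusted p = 0.984), the second turning to -0.10 under scaling alone. With experiment as a block the 95% intervals were -0.46 to 0.41 on probe 1 and -0.48 to 0.53 on probe 2, within a 2-fold change in either direction. Probe 2 was well above background on 3 of 4 arrays of each group, and the 2 probes had a Pearson r of 0.93 over the 12 arrays, given as a description.

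Experiment and slide were partly separate. The arrays of experiment 13 lay on 2 slides, with untreated 13 on slide 1 and Th1 13 and Th17 13 on slide 2, and Vegfa probe 1 had 102 units on the first and 104 and 102 units on the second. Untreated 12, on slide 1 beside untreated 13, had 142 units. Of 18 kept genes of a hypoxia list, 8 were lowest in experiment 13. Adm, Egln3, Ankrd37, P4ha1, Slc2a1, Pgk1 and Egln1 were lowest in experiment 12, and the remaining genes in experiment 14 or 16. The share of all genes lowest in each experiment was not counted. The Pearson r of the 18 with Vegfa probe 1 over the 12 arrays ran from -0.164 to 0.708, as a description. Adm had the widest range of experiment means among them, 1.98 on the log2 scale, and was lowest in experiment 12.

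**Figure D4:**
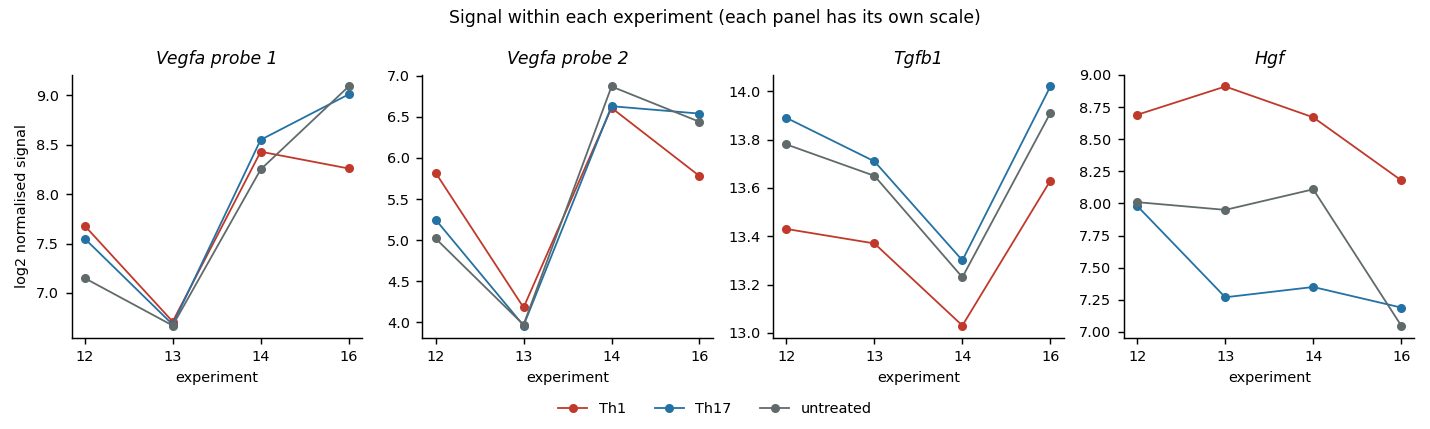
Log2 normalised signal of the 2 Vegfa probes, Tgfb1 and Hgf in each experiment, with 1 line each for Th1, Th17 and untreated microglia. The 3 lines run together for Vegfa, whose experiment means span 2.1 (probe 1) and 2.67 (probe 2), while the Th1 line lies below the untreated line for Tgfb1 and above it for Hgf in all 4 experiments.

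With Th17 supernatant no growth factor probe was called. Over all 24286 probes 0% were called in Th17 against untreated by limma, and 380 had an unadjusted p under 0.05, none of them among the 14. The largest log2 changes of the 14 were -0.37 ± 0.21 for Fgf13 (95% interval -0.83 to 0.10), -0.33 ± 0.26 for Hgf and -0.29 ± 0.25 for Igf1 probe 4, each with an adjusted p of 1. With experiment as a block the interval of Fgf13 was -0.68 to -0.06, which leaves out 0, and its adjusted p in that limma fit was 0.934. The 95% interval stayed within a 2-fold change in both directions for Bdnf (-0.62 to 0.42), Igf1 probe 1 (-0.45 to 0.18), Vegfb (-0.32 to 0.17) and Tgfb1 (-0.36 to 0.52). For Gdnf it ran from -0.68 to 1.12, and with experiment as a block from -0.61 to 1.05. For Vegfa probe 1 it ran from -1.25 to 1.55, and with experiment as a block from -0.28 to 0.59. Fgf9 was not well above background on any Th17 array and on 1 untreated array only, so both groups lay at or near the floor and its interval is no limit on a change.

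The direct comparison of Th1 with Th17 supernatant called 9 of the 14 probes, 3 higher and 6 lower, where 7.02% of all probes were called higher and 7.95% lower. The genes were Fgf9, Pdgfc and Hgf on the higher side and Gdnf, Fgf13 and Igf1 on the lower. The log2 difference of Fgf9 was 4.34 ± 0.21 (adjusted p = 5.17e-08). No Th17 array measured Fgf9 well above background, so the size depends on the value put in its place. The difference was 15.8-fold with each Th17 array set no lower than its dimmest detected probe. On the log2 scale it was 2.73 with a floor of 50 and 1.73 with normexp, so 15.8-fold is not a firm minimum. Hgf had 412, 481, 408 and 291 units on the Th1 arrays of experiments 12, 13, 14 and 16, against 253, 154, 164 and 146 units on the Th17 arrays, without overlap. Its log2 difference was 1.16 ± 0.26 (adjusted p = 0.00346). That call was lost without Th1 12, 13 or 14 and without Th17 13, 14 or 16 (adjusted p = 0.0103 to 0.0122). The log2 difference of Pdgfc was 3.89 ± 0.48, that of Gdnf -3.41 ± 0.40, that of Fgf13 -3.09 ± 0.21 and that of Igf1 -2.32 ± 0.14 on probe 1. The 3 comparisons share arrays, so their values are given side by side only.

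Within single slides the calls against untreated kept their direction. The log2 differences between Th1 and untreated arrays on slides 1, 2 and 3 were 4.76, 3.96 and 4.08 for Fgf9, 4.11, 3.26 and 5.21 for Pdgfc, -3.66, -2.59 and -3.77 for Gdnf, -3.51, -3.35 and -3.35 for Fgf13 and -2.77, -2.49 and -1.94 for Igf1 probe 1. Slide 1 held 1 Th1 and 2 untreated arrays, slide 2 held 2 and 1, and slide 3 held 1 of each. Those of Vegfa probe 1, 0.77, -0.69 and -0.83, changed sign between slides.

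Genes whose signal followed that of a changed growth factor most closely over the 12 arrays are given as a description, with n = 12. For Fgf9 they were Cd274, which encodes the checkpoint ligand PD-L1, with a Pearson r of 0.996, then Tafa2 and Clic5. For Pdgfc they were the interleukin-10 receptor subunit Il10ra (0.983), Tent5a and Mertk. For Gdnf they were Gnat3 (0.977), Gm12657 and Ddah2, for Fgf13 Asb10 (0.993), Daglb and Sptssa, and for Igf1 the oxysterol receptor Gpr183 (0.998), Mctp1 and Arap3. With all arrays in 3 groups of 4, a gene that differed between groups in the same way has a high r by that alone.

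Other genes of growth factor signalling changed in both directions with Th1 supernatant. The 9 lists around them, written with earlier results of these data known, held 172 genes, of which 118 were kept by the filter, and 10 of those rose and 18 fell with Th1 supernatant. These are 8.47% and 15.3%, against 7.49% and 7.89% of all genes. The median log2 change was -0.11 over the listed and -0.06 over all genes, and no listed gene was called with Th17 supernatant, where 0% of all genes were called.

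Among the other ligands, 3 rose and 2 fell. Of 20 other fibroblast growth factors only 7 were kept and none was called (median log2 change 0.03). Fgf23, a hormone of phosphate balance, differed by -0.90 ± 0.30 (adjusted p = 0.0308). Of the neurotrophin and GDNF families 5 of 10 were kept, and Manf, a factor of the endoplasmic reticulum with neurotrophic activity, rose by 1.02 ± 0.13 (adjusted p = 8.41e-05), while the other 4 were not called. That call was lost without Th1 13, Th1 14 or untreated 14 (log2 change 0.95 to 0.99). Of the PDGF, VEGF and IGF families 3 of 7 were kept, and Pdgfa fell by 1.40 ± 0.24 (adjusted p = 0.000702) where its relative Pdgfc rose.

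Of 13 kept ligands of the TGF-beta, EGF and other families, 2 rose and 1 fell (median 0.26), and the fit with experiments as blocks called 3 higher and 2 lower, adding Inhba and Bmp2. Csf1, the growth factor on which microglia depend for survival, rose by 3.50 ± 0.45 (adjusted p = 7.93e-05). Nrg1, a ligand of ERBB receptors, was well above background on all 4 Th1 arrays and on no Th17 or untreated array. It thus passed the filter through its Th1 arrays alone. Its log2 change was 2.53 ± 0.37 (adjusted p = 0.000218), or 4.96-fold with each untreated array set no lower than its dimmest detected probe. That fold is not a firm minimum. The call was lost when the floor was raised to 50 (log2 change 0.84, adjusted p = 0.0969) and with normexp (log2 change 0.69). Gdf15, a stress-induced member of the TGF-beta family, fell by 3.08 ± 0.82 (adjusted p = 0.00984), a call lost in 17 of 25 other settings, among them leaving out any array but Th1 14, untreated 13 or Th17 13.

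Of 24 kept receptors 4 fell and 1 rose (median -0.21), counted on 1 probe per gene. Fgfr1 was not called at -0.75, but its 2 other kept probes were at -1.46 and -3.57. Kdr was not called at -0.33, but its other kept probe was at 2.61. Sort1, which binds the precursors of neurotrophins, fell by 4.24 ± 0.36 (adjusted p = 3.54e-06), and its other probe fell by 1.65. The TGF-beta receptor Tgfbr1 fell by 1.94 ± 0.22 (adjusted p = 3.61e-05) and the IGF1 receptor Igf1r by 1.74 ± 0.20 (adjusted p = 3.87e-05), in the same cells in which Igf1 fell. Acvrl1, a receptor for bone morphogenetic proteins, rose by 1.62 ± 0.10 (adjusted p = 3.61e-07). Gfra1 and Ret, through which GDNF signals, and Pdgfra, the receptor of Pdgfc, had probes on the array that were too dim to be kept.

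Proteins that bind or activate growth factors changed in both directions, 3 higher and 3 lower of 21 kept (median 0.1), and 3 higher and 6 lower with experiment as a block, where Plau, Ltbp2 and Itgav were also called lower. Among the binding proteins of insulin-like growth factors, Igfbp4 fell by 4.02 ± 0.16 (adjusted p = 1.07e-08) and Igfbp5 fell by 3.62 ± 0.36 (adjusted p = 1.25e-05), while Igfbp6 rose by 3.00 ± 0.35 (adjusted p = 4.19e-05). Spint1, an inhibitor of the proteases that activate Hgf, rose by 5.24 ± 0.52 (adjusted p = 1.16e-05), and Thbs1, an activator of latent TGF-beta, by 1.59 ± 0.34 (adjusted p = 0.00276, lost without Th1 12). Lrrc32, which tethers latent TGF-beta to the cell surface, fell by 1.15 ± 0.31 (adjusted p = 0.00993), a call lost in 16 of 25 other settings, among them leaving out any array but Th17 13 or Th17 16.

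Of 16 kept genes known to respond to TGF-beta, 1 rose and 2 fell (median -0.37), and the fit with experiments as blocks called 1 higher and 4 lower. Tgfbi rose by 1.97 ± 0.32 (adjusted p = 0.000442), the inhibitory Smad7 fell by 1.16 ± 0.25 (adjusted p = 0.00262, lost with normexp at -0.98 and when only the 8 arrays compared were fitted) and Id3 fell by 1.81 ± 0.43 (adjusted p = 0.00529, lost without Th1 12, 14 or 16 and without untreated 13 or 14). Of 18 kept hypoxia genes, 2 rose and 2 fell (median 0.36), with Hif1a, the oxygen-regulated transcription factor subunit, at 1.95 ± 0.21 (adjusted p = 2.68e-05) and the hexokinase Hk2 at 1.90 ± 0.30 (adjusted p = 0.000339). The glucose transporter Slc2a3 fell by 1.82 ± 0.20 (adjusted p = 2.51e-05) and the prolyl hydroxylase Egln3 by 2.24 ± 0.54 (adjusted p = 0.00551), the second lost without Th1 12, 13 or 16 and without untreated 13, 14 or 16.

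Genes that receptor tyrosine kinases switch on, listed here as feedback genes, had 5 of 12 kept members called lower and none higher (median -0.34). Dusp4, a phosphatase of MAP kinases, fell by 5.38 ± 0.49 (adjusted p = 6.4e-06), Dusp6 fell by 1.70 ± 0.23 (adjusted p = 0.000137) and the signalling inhibitor Spry1 fell by 1.69 ± 0.38 (adjusted p = 0.00357). Spry1 was well above background on 1 of 4 Th1 arrays, lost its call when the floor was raised to 50 (log2 change -0.59, adjusted p = 0.07) and was also lost without Th1 12, Th1 14, untreated 13 or untreated 16. Without experiment 14 only 2 of the 12 were called lower, Dusp4 and Dusp6.

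**Figure D5:**
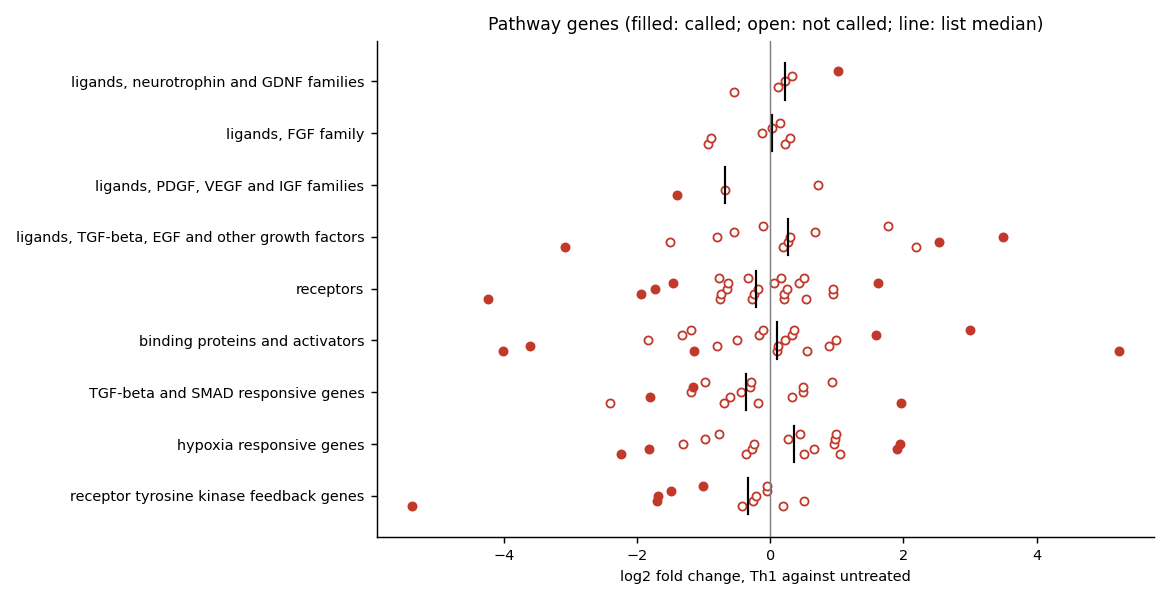
Log2 fold change of Th1 against untreated microglia for the kept genes of 9 lists around growth factor signalling, 1 point per gene, filled where called, with a line at the median of each list. The feedback genes have 5 called genes below 0 and none above, and the other lists with over 10 genes hold called genes on both sides.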

How the data were processed

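Primary mouse microglia were profiled on 12 one-colour Agilent 4x44K arrays, 4 per group, 4 to a slide. Per the file headers, the authors read the images with Feature Extraction 10.7.3.1 (protocol GE1_107_Sep09, build mm9). The deposited scanner files hold spot intensity on a linear scale, background subtracted and not scaled between arrays. A deposited value table holds log2 values that matched scaled, probe-centred processed signal. Its scale and centring are not given in the sources used here, and it served as an alternative only.

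After the study's methods, control and marked spots (103 to 230 per array) were left out, spots of a probe were averaged by the geometric mean, and the arrays were quantile normalised. The 75th percentile was then brought to 1500, values under 15 were raised to that floor, and log2 was taken. Most probes were printed once, so the interquartile rule of those methods was not applied. Probes well above background on at least 4 of 12 arrays were kept, 24286 of 39429, including all 14 of the growth factors. Names came from accessions through RefSeq (GRCm38.p6), used for names and promoter windows, since the headers name another build.

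Differences came from limma (version 3.58.1, R 4.3.3), fitted to the 12 arrays together with a mean for each group, and Benjamini-Hochberg adjustment over all kept probes, at an adjusted p under 0.01 and over 2-fold, and the fit was tested on simulated data. Where no array of a group measured a probe above background, its level there was replaced by a stand-in. For each array of the dim group this was the probe's own signal or that array's dimmest detected probe, whichever was higher. The brighter group's mean was set against the mean of these. The fold obtained depends on that choice and is not a firm minimum. Listed genes are represented by the kept probe of highest mean, and those named are up to 3 called genes of each list that rose and up to 3 that fell most, counts aside. Like-patterned genes are the 3 of highest Pearson r. Genes named without a call were chosen after their values were seen. They are Fgf23, Fgfr1, Kdr, Cd3e, Cd4, Adm and the uncalled hypoxia genes named by their lowest experiment, receptors not kept, and genes called only with the block. The 10 genes and the lists were chosen with earlier results of these data known, and the study itself names several of the genes from these samples.

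The titles give each group the numbers 12, 13, 14 and 16. Deviations from the group means correlated by 0.244 to 0.634 in all 12 same-number pairs and by -0.422 to 0.123 in the other 36, so the numbers were taken to pair the samples and a fit with that block was an alternative. The main p-values come from the fit without that block. They measure the scatter of arrays within groups, which includes offsets shared by the arrays of an experiment. They do not measure how the treatment effect varied between the 4 experiments. For Tgfb1 the limma adjusted p in Th1 against untreated was 0.269 without the block and 0.00766 with it. The number of arrays limits the precision. Other alternatives were scaling without quantiles, other floors, other filters, the value table, 1 probe per gene, fewer arrays and a slide block.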

Additional observations from a re-analysis of the deposited data

Results flagged for a closer look

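Of 41 groups of 4 arrays over the growth factor probes, 4 held an array whose gap to its neighbour exceeded Dixon's 95% critical value relative to the range of the group. Some groups hold values tied at the floor, so no chance rate is set beside this count. Gdnf had a log2 signal of 5.86 on Th1 14, against 3.91 to 3.96 on the other Th1 arrays, 2 of them at the floor. Fgf9 had 4.42 on Th17 16 and 3.91, the floor, on the other Th17 arrays, so any value above the floor on Th17 16 would have been flagged. Igf1 probe 2 had 16.50 on untreated 16, below 16.77 to 16.82 on the other untreated arrays. Hgf had 7.05 on untreated 16, below 7.95 to 8.11 on the others, and the log2 change of Hgf between Th1 and untreated cells was 0.59 without that array (adjusted p = 0.045).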

How the results depend on the processing

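Over 25 alternatives (12 leaving out 1 array, 13 others, of which 3 were chosen after seeing the data: normexp on the median spot signal, the replicate block with a floor of 50, and leaving out experiment 14), the count of growth factor probes called stayed within 1.5 times in each comparison, except that with 1 probe per gene 5 of 10 were called in Th1 against untreated, since fewer probes were tested. Of 1660 single values, 1529 kept their direction and side of the threshold, 81 lost a call and 50 changed sign, the last all among values that were not called. The replicate block changed no growth factor call (8, 0 and 9 probes called). In the lists it added calls, given beside the counts, and P4ha2 among the hypoxia genes (3 higher and 2 lower). Over all probes it called 4197, 0 and 4006, against 3772, 0 and 3636 without it, for Th1 against untreated, Th17 against untreated and Th1 against Th17. In Th1 against untreated, Bdnf was -0.06 with scaling and with the value table. Vegfa probe 2 was there -0.10 with scaling, -0.19 with a floor of 50 with or without the replicate block, -0.09 with the value table, -0.03 with normexp and -0.08 with the slide block. In Th17 against untreated it was -0.02 with scaling, -0.04 with a floor of 50 with or without the replicate block, -0.10 with the value table and -0.33 with the slide block, and Vegfa probe 1 was -0.23 with the slide block. In Th1 against Th17, probe 2 was -0.07 with scaling, -0.15 with a floor of 50 with or without the replicate block and -0.06 with normexp, and probe 1 was 0.13 with the slide block. The cause was not tested. Leaving out 1 array at a time gave, for Th1 against untreated, -0.10 to 0.26 for Bdnf, -0.40 to 0.41 for Vegfa probe 1 and -0.51 to 0.50 for probe 2. For Th17 against untreated it gave -0.22 to 0.02 for Bdnf, -0.22 to 0.05 for Fgf9, -0.22 to 0.57 for Pdgfc, -0.05 to 0.23 for Tgfb1, -0.22 to 0.59 for Vegfa probe 1 and -0.52 to 0.56 for probe 2. For Th1 against Th17 it gave -0.60 to 0.18 for Vegfa probe 1 and -0.54 to 0.48 for probe 2. The size of changes in dim probes depended on the floor: with normexp the Th1 change was -1.22 for Gdnf, 1.71 for Fgf9 and -2.14 for Fgf13. Normexp on the mean spot signal and the study's rule on pixel variation were not run.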

Other observations

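Patterns most like those of genes with no call with Th1 supernatant were looked up after their values had been seen, and are given with no test. Over the 12 arrays, Vegfa followed Xlr4a (Pearson r of 0.935), Atp9a (0.928) and Xlr3b (0.928), Tgfb1 followed Chmp6 (0.959), Vegfb followed Gltp (0.97) and Hgf followed Chrac1 (0.97).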
